A study of Mus with 4 samples.

Results

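Mrgprd non-peptidergic nociceptors (NP1) are the small unmyelinated sensory neurons that carry the Mas-related G protein-coupled receptor MRGPRD. They were studied here in mouse dorsal root ganglia (DRGs), which hold the cell bodies of the neurons that innervate skin and muscle. A neuron was a barcode with under 20% mitochondrial UMIs, at least 8000 UMIs, at least 20 UMIs of the neuronal genes Snap25, Uchl1 and Tubb3 together, and more of these than of the glial genes Apoe and Fabp7. A UMI is a unique molecular identifier, which marks 1 captured transcript. A member was a neuron with at least 3 Mrgprd UMIs and at least 1 per 10000 of its UMIs, and with under 10 per 10000 of Sprr1a, a gene switched on by axon injury. The rule found 496 members among 3740 neurons and 37451 barcodes. The CCI group held 167 and 29 members in libraries 1 and 2, and the CON group held 249 and 51.

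CCI mice were adult male wild-type C57BL/6J mice with loose ligatures around the left sciatic nerve, a chronic constriction injury, and their left L4 and L5 DRGs were taken 3 d later. CON mice were naive mice of the same strain, sex and genotype without surgery, so that the effect of the operation itself cannot be told apart from that of the ligatures. Each group had 2 droplet libraries (10x Genomics), and neither labels nor methods say how many mice went into 1 of them. The p-values therefore measure the spread between these libraries, which may be technical.

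Non-peptidergic nociceptors end as free nerve endings in the outer layer of the skin and respond to noxious mechanical and thermal stimuli. In mice they arise from precursors in which the transcription factor Runx1 acts together with Ret, the signalling receptor of the GDNF family. MRGPRD itself responds to beta-alanine and couples to G proteins that close potassium channels. Peptidergic nociceptors, by contrast, make substance P and CGRP.

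The libraries differed in depth. They held between 3376 and 11628 barcodes and between 52074235 and 135009606 UMIs. The median member held 76757 and 102569 UMIs in CCI libraries 1 and 2 and 64230 and 144528 in CON libraries 1 and 2, against 46248, 65557, 38940 and 112354 for the other neurons within the Sprr1a limit. Mitochondrial UMIs made up a median of 3.50% and 4.16% in CCI members and 2.20% and 2.57% in CON members. Pairs of libraries shared between 12 and 31 barcode sequences, and none of these was a member in both libraries of a pair. CCI library 2 gave only 29 members, so that its sum of 2695471 UMIs was the smallest of the 4.

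The values that chose the members are given as a description. Mrgprd, the receptor gene itself, lies on chromosome 7 (145314835 to 145324059, GRCm38.p6). Its median was 1.995 and 1.47 per 10000 UMIs in CCI members and 2.57 and 2.15 in CON members. In CCI libraries 31.7% and 55.2% of members lay between 1 and 1.5 per 10000, against 12.05% and 11.8% in CON libraries. The members just inside the limit held 1.01 and 1.01 per 10000 in CCI and 1.03 and 1.08 in CON, and the nearest neurons below it with at least 3 UMIs held 0.980 and 0.979 in CCI and 0.968 in both CON libraries. The Sprr1a limit removed no neuron that passed the Mrgprd limit. Sprr1a was seen in 87 of 167 and 15 of 29 CCI members and in no CON member, and its highest value in a member was 8.24 per 10000. Past the Sprr1a limit stood 240 and 245 other CCI neurons and 1 neuron in each CON library.

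The label held against markers that the rule did not use. Levels are CPM, the UMIs of a gene per 1000000 UMIs summed over all cells of a class in 1 library. Lpar3, a receptor for lysophosphatidic acid, had 222 and 219 CPM in CCI members, against 173 and 178 in CON members. The same gene had 15.1 and 23.4 CPM in CCI other neurons, against 6.48 and 9.91 in CON other neurons. Cd55, which protects cells from complement, had 909.9 and 1127 CPM in CCI members, against 1058 and 1126 in CON members, and all 4 values lay above the 208 of the highest sum of other neurons. Ly86, a partner of a toll-like receptor homologue, had 1519 and 2013 CPM in CCI members, against 1975 and 1923 in CON members. Ctxn3, which encodes a small membrane protein, had 698 and 1051 CPM in CCI members, against 800.1 and 952 in CON members. With every cell thinned to 8000 UMIs, Lpar3 was seen in 71.3% and 75.9% of CCI and 63.9% and 70.6% of CON members, against 7.70% and 8.61% of CCI and 4.21% and 9.74% of CON other neurons and 3.94% and 2.69% of CCI and 4.44% and 3.32% of CON non-neuronal cells.

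Members made up a smaller share of neurons in CCI libraries than in CON libraries. They were 10.1% of 1653 neurons (exact 95% interval 8.69 to 11.7) and 3.22% of 901 neurons (2.17 to 4.59) in CCI libraries 1 and 2. In CON libraries 1 and 2 they were 26.5% of 939 neurons (23.7 to 29.5) and 20.6% of 247 neurons (15.8 to 26.2). The mean was 6.66 ± 4.87% in CCI and 23.6 ± 4.15% in CON (SD, n = 2 libraries each), and the groups did not overlap. With 2 libraries against 2, an exact two-sided permutation test cannot give a p under 0.333. Intervals cover counting error only. A lower share of cells and less Mrgprd per cell cannot be told apart by this limit, since the rule reads the level of the gene.

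A second count that does not use Mrgprd was therefore made, with a limit chosen after the values were seen. Neurons with Lpar3, Ctxn3 and Ly86 together at 8 or more per 10000 were 18.2% and 14.4% of neurons in CCI libraries 1 and 2, against 30.4% and 31.2% in CON libraries 1 and 2. The mean was 16.3 ± 2.67% in CCI and 30.8 ± 0.582% in CON. Of these neurons, 50.5% and 20.8% passed the Mrgprd limit in CCI, against 82.8% and 63.6% in CON. Below the Mrgprd limit, and within the Sprr1a limit, were 145 and 98 of them in CCI and 49 and 28 in CON.

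**Figure D1:**
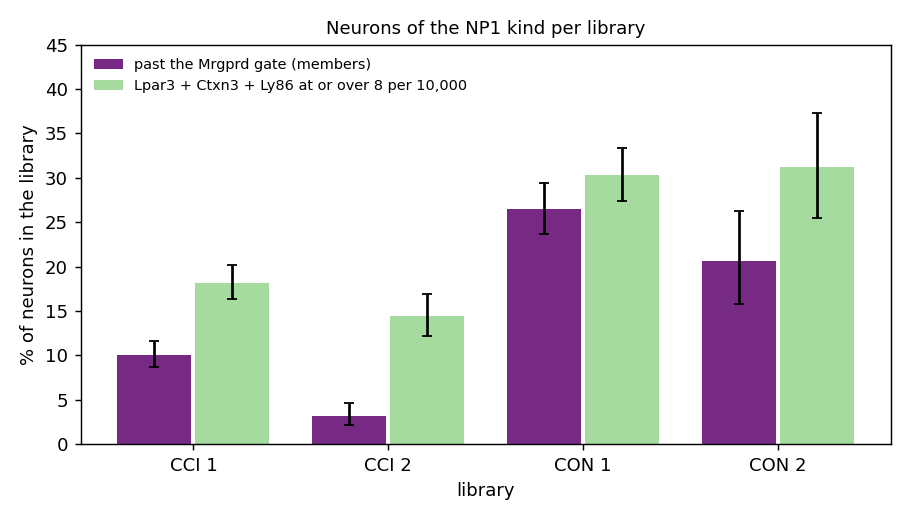
Share of neurons in each library that passed the Mrgprd limit (purple) and that held Lpar3, Ctxn3 and Ly86 together at 8 or more per 10000 UMIs (green), with exact 95% binomial intervals as bars. Both CCI libraries sit below both CON libraries for either count, and the gap between purple and green is widest in CCI library 2, at 3.22% against 14.4%.

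Over all neurons chosen by these 3 markers within the Sprr1a limit, the log2 fold change of Mrgprd between CCI and CON was -0.98 (SE 0.28), with an adjusted p of 0.231 (edgeR's quasi-likelihood test, Benjamini-Hochberg). In this wider set 12459 genes were tested and 81 were called, 0.65%. Of these, 79 were higher in CCI (0.634%) and 2 lower (0.0161%). The 79 included genes that were lower in members than in other neurons, among them Adcyap1 (3.98), Gpx3 (2.81), Nppb (4.10), Nts (4.56), Gfra3 (2.75), Ngfr (1.49) and Tac1 (1.58, all log2 fold changes of CCI over CON), and the part of other neuron classes in this set was not tested. Of the 9 regeneration genes that the study named on these samples, Atf3, Gap43, Gal and Serpinb1a were called higher in the wider set. Sprr1a was also called but belongs to the rule and is not counted as a result. The median log2 fold change of the 9 genes, Sprr1a included, was 1.89. The choice of those genes on the same libraries makes their direction no independent evidence. Among 17 genes of non-peptidergic identity edgeR called none of them, and their median was -0.28. Both groups had to pass the limit on the 3 markers, which holds genes that go with these markers alike. Neurons that lost the markers are not in this set, so it cannot show a loss of identity in them.

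The neurons with the 3 markers that fell below the Mrgprd limit are given as levels only. Atf3, an injury-induced transcription factor, had 236 and 122 CPM in CCI neurons below the gate, against 45.5 and 9.61 in CON neurons below the gate. Timp1, an inhibitor of matrix proteases, had 37.7 and 42.8 CPM in CCI neurons below the gate, against 0.406 and 0 in CON neurons below the gate. Gal, the neuropeptide galanin, had 507 and 98.5 CPM in CCI neurons below the gate, against 1.62 and 1.15 in CON neurons below the gate. In each case both CCI sums lay above both CON sums, and each CCI sum lay above that of the members of the same library. In CON the sums below the gate also lay above those of members for Atf3 in both libraries. For Gal this held only in CON library 2, and for Timp1 in neither. These 3 genes were named after the data were seen, and no share over all genes is given for this class.

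The profile of members against other neurons is a description, because the limit on Mrgprd sets these same cells apart and any gene that goes with Mrgprd must differ. With both classes of a library summed, and the library taken as a block, edgeR called 7106 of 14344 genes, 49.5%, with 3089 higher in members and 4017 lower. Higher genes made up 21.5% and lower genes 28.0% of those tested. Levels are CPM, as mean ± SD of 4 libraries, and differences are log2 values from edgeR.

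Among receptors at the cell surface, Agtr1a, the angiotensin receptor, had 40.6 ± 6.73 CPM in members, against 2.60 ± 0.918 in other neurons (log2 difference 4.16, SE 0.19). Htr4, a serotonin receptor that couples to cyclic AMP, had 16.5 ± 0.821 CPM in members, against 1.52 ± 0.269 in other neurons (log2 difference 3.67, SE 0.16). Mrgprb5, another member of the Mas-related family, had 2.29 ± 0.455 CPM in members, against 0.12 ± 0.0322 in other neurons. Its 4 member sums, between 1.998 and 2.97, all lay above the 4 sums of other neurons. Mrgpra3, the itch receptor for chloroquine that marks NP2 neurons, had 0.662 ± 0.842 CPM in members, against 33.3 ± 15.01 in other neurons. Of the 5 tested markers of NP2 neurons 2 were called higher and 2 lower in members, with a median log2 difference of 0.18. Of 49 tested G protein-coupled receptors of nociceptors other than Mrgprd, 15 were called higher and 30 lower in members, shares of the list to be read beside the 21.5% and 28.0% of all genes.

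Genes of G protein signalling were called higher more than lower. Of 43 tested, 26 were called higher and 15 lower, to be read beside the 21.5% higher and 28.0% lower of all genes. Their median log2 difference was 0.46 beside -0.04 over all genes tested. Prkcq, which encodes protein kinase C theta, had 146 ± 14.7 CPM in members, against 9.51 ± 3.31 in other neurons (log2 difference 4.18, SE 0.23). Prkca, a calcium-dependent protein kinase C, had 395 ± 42.7 CPM in members, against 110.4 ± 33.5 in other neurons (log2 difference 2.08, SE 0.10). Prkar2b, a regulatory subunit of protein kinase A, had 333 ± 48.1 CPM in members, against 87.8 ± 12.4 in other neurons (log2 difference 2.12, SE 0.08). Gnaq and Gna14, alpha subunits that act on phospholipase C, had 622 ± 117 against 254 ± 80.4 and 186 ± 13.5 against 67.2 ± 13.3 CPM. Plcb3, the phospholipase C beta downstream of such subunits, had 234 ± 20.2 CPM in members, against 79.6 ± 11.4 in other neurons (log2 difference 1.76, SE 0.09).

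Ion channel genes went both ways. Their counts, here and in the next paragraph, are to be read beside the 21.5% higher and 28.0% lower of all genes. Of 13 sodium channel genes, 4 were called higher and 7 lower. Scn11a, which encodes the persistent sodium channel Nav1.9, had 442 ± 77.6 CPM in members, against 161 ± 21.7 in other neurons (log2 difference 1.65, SE 0.12). Scn10a, which encodes the tetrodotoxin-resistant channel Nav1.8, had 419 ± 75.7 CPM in members, against 206 ± 39.4 in other neurons (log2 difference 1.23, SE 0.10).

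Of 58 potassium and HCN channel genes, 18 were called higher and 29 lower. Kcnk18, the background potassium channel TRESK, had 32.9 ± 3.06 CPM in members, against 9.03 ± 1.36 in other neurons (log2 difference 2.07, SE 0.10), and Kcnt1, a sodium-activated potassium channel, had 119 ± 23.5 CPM in members, against 41.2 ± 9.60 in other neurons. Kcnk3, the acid-sensitive background channel TASK1, had 0.452 ± 0.565 CPM in members, against 37.4 ± 7.86 in other neurons (log2 difference -5.79, SE 0.34). Among 26 sensory transduction channels 12 were called higher and 12 lower. Trpc6, a calcium-permeable cation channel, had 38.7 ± 1.67 CPM in members, against 6.29 ± 0.321 in other neurons (log2 difference 2.83, SE 0.10). P2rx3, the ATP-gated channel that is a classical mark of non-peptidergic neurons, had 54.02 ± 27.8 CPM in members, against 13.1 ± 5.85 in other neurons, and its highest member sum was the 94.8 of CON library 2. Trpv1, the capsaicin receptor, had 11.9 ± 6.69 CPM in members, against 161 ± 22.3 in other neurons (log2 difference -3.58, SE 0.23), and Trpa1, the receptor of pungent electrophiles, had 56.3 ± 7.72 CPM in members, against 25.8 ± 4.02 in other neurons.

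Growth factor receptors and transcription factors also differed. Ret had 402 ± 44.1 CPM in members, against 245 ± 15.4 in other neurons (log2 difference 0.91, SE 0.10), and Gfra2, its co-receptor for neurturin, had 258 ± 18.8 CPM in members, against 102 ± 40.8 in other neurons. Ngfr, the low-affinity neurotrophin receptor, had 4.41 ± 3.93 CPM in members, against 170.4 ± 38.9 in other neurons. Runx1 had 281 ± 38.9 CPM in members, against 149.8 ± 23.5 in other neurons (log2 difference 1.10, SE 0.09). Bcl11a, a zinc finger factor, had 0.0488 ± 0.0976 CPM in members, against 14.1 ± 2.62 in other neurons. Of 18 genes of non-peptidergic identity, 17 were called higher and 1, Rarres1, lower, beside 21.5% higher and 28.0% lower over all genes. Rarres1 had 14.2 ± 3.41 CPM in members, against 124 ± 68.8 in other neurons.

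The largest differences by the rule for named genes, at a mean of at least 6 on the log2 scale of CPM, included the following on the higher side. Beside Lpar3, Prkcq, Ly86, Ctxn3 and Cd55 there were the kainate receptor gene Grik1 (log2 difference 3.12, SE 0.14), Gm765 (4.07), the Wnt agonist gene Rspo2 (2.87) and the complement inhibitor gene Serping1 (2.86). Rab27b, which acts in vesicle release, differed by 2.71, Klhl5 by 2.68, and Nnat, which encodes neuronatin, by 2.51. The cadherin genes Cdh1 and Cdh11 differed by 2.64 and 2.49.

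On the lower side stood genes of other sensory classes. Nppb, the itch peptide of NP3 neurons, had 0.363 ± 0.372 CPM in members, against 142 ± 19.5 in other neurons (log2 difference -7.91, SE 0.24), and Sst, somatostatin, had 0.126 ± 0.152 CPM in members, against 72.02 ± 35.9 in other neurons. The 7 NP3 markers, the 8 peptidergic markers and the 3 cold neuron markers were all called lower, as were 28.0% of all genes. Adcyap1, the neuropeptide PACAP, had 8.50 ± 11.1 CPM in members, against 434 ± 111 in other neurons (log2 difference -5.70, SE 0.47), and Gpx3, an extracellular glutathione peroxidase, had 3.29 ± 2.58 CPM in members, against 218 ± 48.6 in other neurons. The other named genes on this side, Fxyd6, Resp18, Camk2n1, Gal, Nts, Tmem176b, Ngfr, Rgs5, Tmem176a, Lgals1, Fbxo2 and Pcp4l1, differed by between -5.95 and -4.67.

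Peptide genes were low but not at 0. Calca, which encodes CGRP, had 1608 ± 324 CPM in members, against 7454 ± 865 in other neurons (log2 difference -2.03, SE 0.12). At 8000 UMIs Calca was seen in 99.4% of CCI library 1 members and every CCI library 2 member, in 99.6% and 98.04% of CON members, and in 94.4% and 83.03% of CCI and 97.2% and 27.95% of CON non-neuronal cells, so that no expression is read from that share. Th, Nppb and Sst had sums of at most 2.28, 0.844 and 0.307 CPM in members.

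Other gene groups are given as counts beside the 21.5% and 28.0% of all genes. Of 76 ribosomal protein genes 27 were called higher in members and none lower, with a median log2 difference of 0.20. Of 89 nuclear genes of oxidative phosphorylation 21 were called higher and 2 lower. Of 32 identity transcription factors 9 were called higher and 16 lower, and of 36 adhesion and surface genes 11 and 21. Of 24 neuropeptide and granin genes 5 were called higher and 17 lower. Large-fibre markers were lower or not called, as for Nefh, a neurofilament of myelinated neurons, with 128 ± 30.3 CPM in members, against 417 ± 43.4 in other neurons. Dissociation and stress genes were called lower for 17 of 19 and higher for 1, and injury and regeneration genes lower for 30 of 43 and higher for 4.

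**Figure D2:**
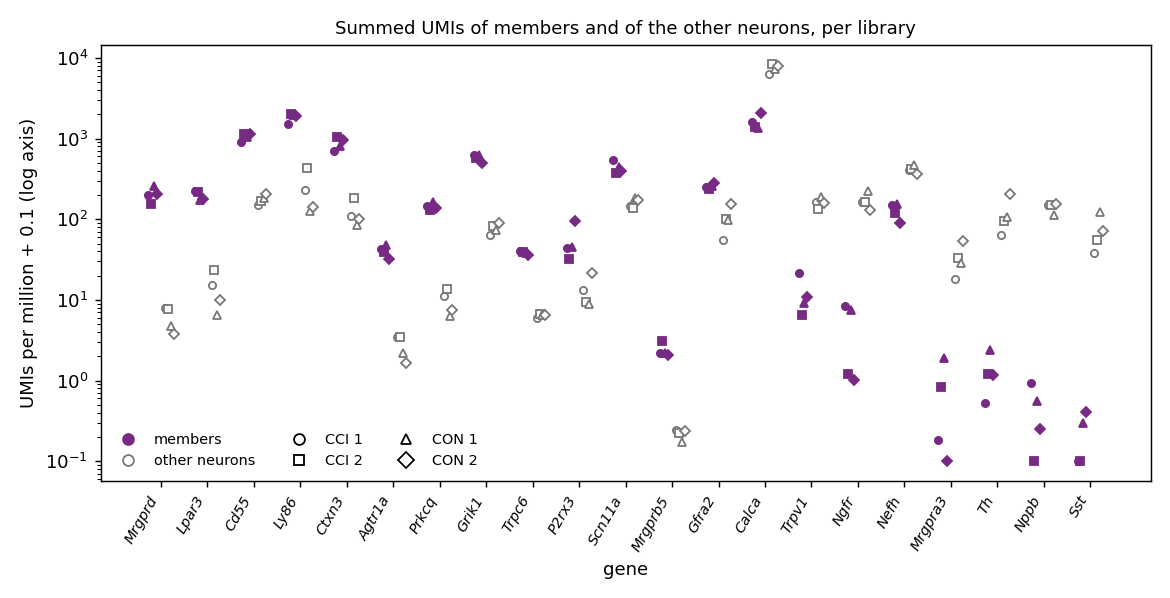
CPM plus 0.1 on a log axis for genes of NP1 identity (left) and of other sensory classes (right), in the sum of members (filled) and of the other neurons (open) of each library, with 1 symbol shape per library. Mrgprd was used by the rule, and for Lpar3 the 4 member sums lie between 173 and 222, above all 4 sums of other neurons.

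Markers of satellite glia, immune cells and fibroblasts had lower summed levels in members than in non-neuronal cells. The summed level of 7 satellite glia markers, Apoe and Fabp7 of the rule included, was 301 and 490.5 CPM in CCI members and 547 and 314 in CON members, against 44276 and 59776 in CCI and 49102 and 75682 in CON non-neuronal cells. For 7 immune markers it was 13.1 and 11.1 in CCI members and 7.88 and 7.07 in CON members, and for 5 fibroblast markers 5.99 and 18.2 in CCI members and 27.0 and 1.69 in CON members. Each marker of these 3 lists had at least 1 UMI in members. The summed level of 6 Schwann cell markers was 607 and 548 CPM in CCI members and 576 and 529 in CON members. In non-neuronal cells it was 11790 and 5037 in CCI and 6354 and 4605 in CON. Pmp22, a myelin protein gene, made up most of the member sums. It had 425 and 463 CPM in CCI members, against 422 and 429 in CON members, and non-neuronal cells had 1989.7 and 1016 CPM in CCI, against 1249.6 and 850.1 in CON. Scn7a, a sodium channel gene, had 111 and 74.6 CPM in CCI members, against 106 and 92.96 in CON members, which overlapped with the 121 and 92.8 CPM in CCI, against 141 and 42.5 in CON of non-neuronal cells. Their part in the results was not tested.

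CCI against CON within members asked which genes moved in NP1 neurons that still carried Mrgprd. Few genes were called. Of 11647 genes tested, 7 passed an adjusted p of 0.05 (edgeR's quasi-likelihood test with Benjamini-Hochberg adjustment), which is 0.0601% of them. Of these, 5 were higher (0.0429%) and 2 lower in CCI (0.0172%). At an unadjusted p under 0.05 there were 411 genes (3.53%), 232 higher (1.99%) and 179 lower (1.54%). DESeq2 called 16 genes (0.137%), 11 higher (0.0944%) and 5 lower (0.0429%), and 6 of the 16 were also among the 7. Both CCI sums lay above both CON sums for 13.5% of genes, and below them for 14.7%. With CCI library 1, CCI library 2, CON library 1 or CON library 2 left out, edgeR called 46, 46, 148 and 62 genes. Sprr1a was among the 7 but belongs to the rule and is not counted as a result. Simulated counts of this comparison put the recovery at 40% for 2-fold and 95% for 4-fold changes. They gave all genes the same spread between libraries (edgeR's common dispersion, 0.0316) and the same expected shares in every library. For genes that vary more between libraries the recovery may be lower.

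Gadd45g, a stress-induced gene of the growth arrest and DNA damage family, was higher in CCI. It had 155 and 145 CPM in CCI members, against 45.5 and 40.9 in CON members, and the groups did not overlap. The edgeR log2 fold change of 1.80 (SE 0.19) had an adjusted p of 0.00348. Gadd45g also had 350.2 and 554 CPM in CCI non-neuronal cells, against 199.5 and 241 in CON non-neuronal cells, and the log2 fold change in other neurons was 1.70 (SE 0.20). Among the alternative runs with all 4 libraries, the Gadd45g call was lost only without members holding 3 UMIs of another class (edgeR adjusted p 0.306). That run left 1 member in CCI library 2.

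Alkal2, a ligand of the receptor tyrosine kinases ALK and LTK, was higher in CCI members. It had 94.6 and 58.2 CPM in CCI members, against 19.9 and 23.8 in CON members, without overlap. The edgeR log2 fold change of 1.82 (SE 0.24) had an adjusted p of 0.0125. In other neurons Alkal2 had 70.1 and 124 CPM in CCI, against 24.4 and 10.7 in CON, and in non-neuronal cells 13.7 and 9.05 CPM in CCI, against 5.45 and 0.839 in CON. The edgeR call was lost without members holding 3 UMIs of another class's markers (log2 fold change 1.84, adjusted p 0.331), and when members with 1 per 10000 UMIs of them were left out (1.26, adjusted p 0.48), which kept 36 and 3 CCI members and 99 and 17 CON members.

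Bc1, a short noncoding RNA made by RNA polymerase III and carried into dendrites and axons, was lower in CCI members. It had 22.9 and 44.5 CPM in CCI members, against 506 and 185 in CON members. The groups did not overlap, but the CON libraries differed widely from each other. The edgeR log2 fold change of -3.39 (SE 0.44) had an adjusted p of 0.0125, and with DESeq2 it was 0.0518. Outside the members Bc1 lay the same way round, with 32.2 and 56.5 CPM in CCI other neurons, against 783 and 214 in CON other neurons. In non-neuronal cells it had 12.6 and 15.01 CPM in CCI, against 369 and 55.6 in CON.

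Timp1, Cartpt and Fbp1 were called at lower levels and are named after their values were seen. Timp1 had 7.09 and 4.45 CPM in CCI members, against 0.456 and 0.307 in CON members (log2 fold change 3.85, SE 0.54, edgeR adjusted p 0.0205). Non-neuronal cells had 31.6 and 61.6 CPM in CCI, against 5.57 and 7.35 in CON. Without CCI library 1 the Timp1 call was lost, with an edgeR adjusted p of 0.309. Cartpt, the neuropeptide CART, had 18.7 and 31.9 CPM in CCI members, against 6.64 and 4.30 in CON members (log2 fold change 2.13, SE 0.33, edgeR adjusted p 0.0472). Other neurons had 135 and 167 CPM in CCI, against 235 and 178 in CON, well above members in every library.

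Fbp1, a gluconeogenic enzyme, was lower in CCI members, with 3.12 and 1.48 CPM in CCI members, against 17.3 and 14.1 in CON members (log2 fold change -2.60, SE 0.33, edgeR adjusted p 0.0125). Other neurons had 1.25 and 5.59 CPM in CCI, against 1.65 and 1.49 in CON. When the neurons were chosen by Lpar3, Ctxn3 and Ly86 in place of Mrgprd the Fbp1 difference was -0.50, with an edgeR adjusted p of 0.898, and Fbp1 was not called.

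**Figure D3:**
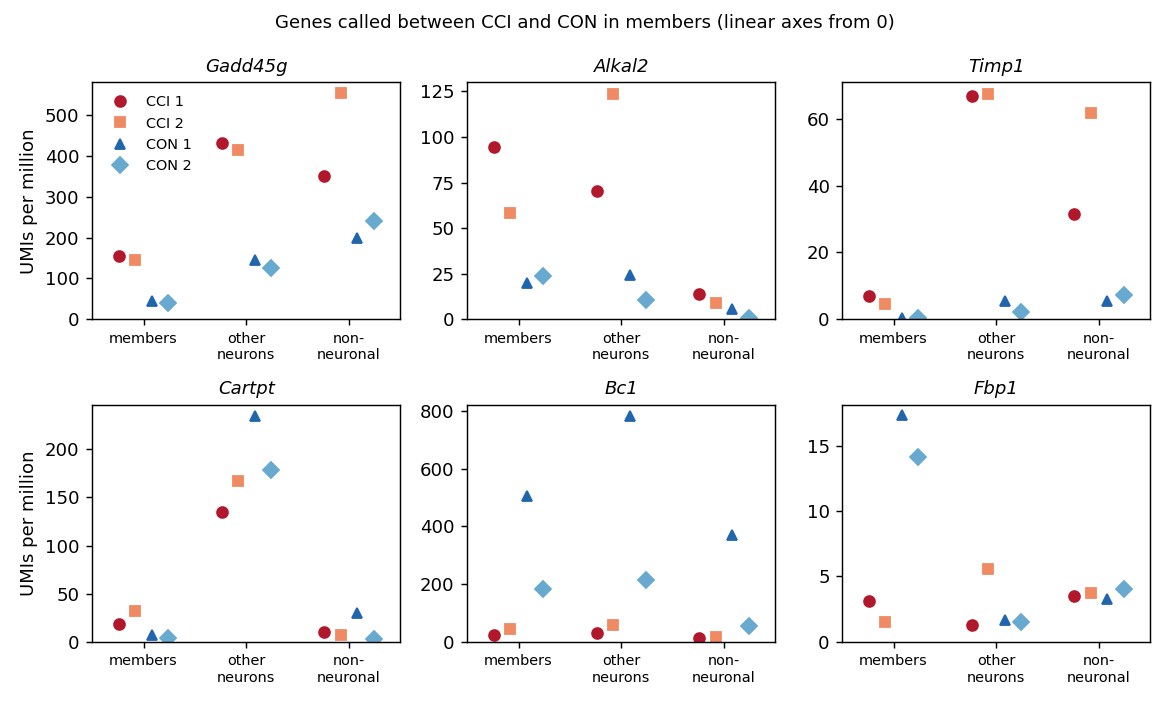
CPM of the 6 called genes other than Sprr1a in members, other neurons and non-neuronal cells, with CCI libraries in red and orange and CON libraries in blue, on linear axes from 0. In members the CCI and CON libraries do not overlap for any of the 6, and Gadd45g and Bc1 lie the same way round in the other classes while Fbp1 does not.

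Injury and regeneration genes were described next, since axon injury turns on a shared programme in sensory neurons. In members 2 of 33 tested genes of the injury list were called, both higher, Alkal2 and Timp1, where 0.0601% of all genes were called, 0.0429% higher, and the median log2 fold change was 0.76 beside 0.00 over all genes tested. In other neurons 28 of 43 were called higher with a median of 2.02, where 2.16% of all 14988 genes were called, 2.09% higher and 0.0734% lower. Of the study's regeneration genes other than Sprr1a, 0 of 7 passed in members with edgeR, 6 had an unadjusted p under 0.05, and DESeq2 called none of them. In other neurons 7 of 8 passed. The counts of the 2 classes stand at unlike depth, as with 2695471 UMIs in members and 40396241 in other neurons of CCI library 2. They are therefore no test of a difference between the classes. The edgeR test of the difference itself, given below, called 3 of the 8. The study picked these genes on the same libraries, and the members and other neurons come from the same libraries.

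Atf3 had 103 and 82.7 CPM in CCI members, against 19.98 and 3.23 in CON members, with no overlap (log2 fold change 2.92, SE 0.48, edgeR adjusted p 0.0547). It missed the threshold and had an adjusted p of 0.836 with DESeq2. With edgeR Atf3 was called with members thinned (adjusted p 2.32e-06) and with Apoe and Fabp7 under 5 per 10000 (0.00966). It was also called without members at 1 per 10000 of another class (0.00139). Atf3 was not called with the replicate number as a block, with upper-quartile factors or without any member with a Sprr1a UMI. With 1 library left out its log2 fold change lay between 2.27 and 4.81. Such a fit leaves 1 library in a group, so a call in it is not read as support. Non-neuronal cells had more Atf3 than members, with 434 and 917 CPM in CCI non-neuronal cells, against 283 and 338 in CON non-neuronal cells. Gal had 156 and 14.8 CPM in CCI members, against 3.84 and 0.154 in CON members (log2 fold change 5.14, SE 0.86, edgeR adjusted p 0.0616), and CCI library 1 stood far above CCI library 2. DESeq2 gave an adjusted p of 0.932 for Gal. With edgeR Gal was called with the replicate number as a block (adjusted p 0.000152) and with members thinned (7.76e-21). It was also called with Apoe and Fabp7 under 5 per 10000 (0.0103) and without any member with a Sprr1a UMI (0.0225), but not without CCI library 1. The log2 fold change of Gal was 5.92, 8.94 and 4.52 without CCI library 2, CON library 1 and CON library 2. Npy, neuropeptide Y, had 5.06 and 1.85 CPM in CCI members, against 0.13 and 0 in CON members (log2 fold change 5.22, SE 0.85, edgeR adjusted p 0.0547). Without CCI library 2, CON library 1 and CON library 2 the log2 fold change of Npy was 5.61, 7.75 and 4.78. Non-neuronal cells had 498 and 149 CPM in CCI, against 22.9 and 4.93 in CON for Gal and 71.3 and 38.1 CPM in CCI, against 1.54 and 0.493 in CON for Npy.

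Gap43, a growth cone protein, had 90.8 and 40.8 CPM in CCI members, against 61.1 and 47.6 in CON members, so the groups overlapped (log2 fold change 0.29, SE 0.28, edgeR adjusted p 1). Its sign turned without CCI library 1. Flrt3, an adhesion protein of growing axons, had 51.6 and 36.4 CPM in CCI members, against 28.5 and 18.6 in CON members (log2 fold change 0.91, SE 0.24, edgeR adjusted p 0.493). Sox11, a transcription factor of growing neurons, had 97.5 and 49.3 CPM in CCI members, against 45.1 and 31.2 in CON members (log2 fold change 0.95, SE 0.27, edgeR adjusted p 0.584). Gadd45a, of the same family as Gadd45g, had 136 and 45.6 CPM in CCI members, against 40.2 and 60.5 in CON members, and CCI library 2 lay within the CON range. Serpinb1a, a protease inhibitor, had 74.4 and 22.6 CPM in CCI members, against 15.2 and 10.9 in CON members (log2 fold change 1.91, SE 0.38, edgeR adjusted p 0.137). It was called with members thinned (edgeR adjusted p 1.69e-06), but not without CCI library 1 or with DESeq2 (1.00). Without CCI library 2, CON library 1 and CON library 2 its log2 fold change was 2.43, 2.15 and 1.75. The log2 fold change of Sox11 was 1.28 without CCI library 2 and 1.21 without CON library 1, where that of Flrt3 was 1.22. For Gadd45a it was -0.053 without CCI library 1, 1.38 without CCI library 2 and 1.23 without CON library 2.

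Stress genes that dissociation can also raise had a median log2 fold change of 0.72 over 19 tested genes in members. None of the 19 was called with edgeR, and 8 had an unadjusted p under 0.05, all higher in CCI, where 3.53% of all genes, 1.99% higher, had such a p. The DESeq2 calls held none of these genes either. Jun had 197 and 218 CPM in CCI members, against 109.7 and 39.3 in CON members (log2 fold change 1.49, SE 0.34, edgeR adjusted p 0.276), and Egr1 had 9.20 and 34.9 CPM in CCI members, against 10.5 and 3.23 in CON members. The labels give an enzymatic digestion and cryopreservation for all samples, and the part of handling in these values was not tested. Jun and Egr1 were higher in non-neuronal cells than in members in all 4 libraries.

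**Figure D4:**
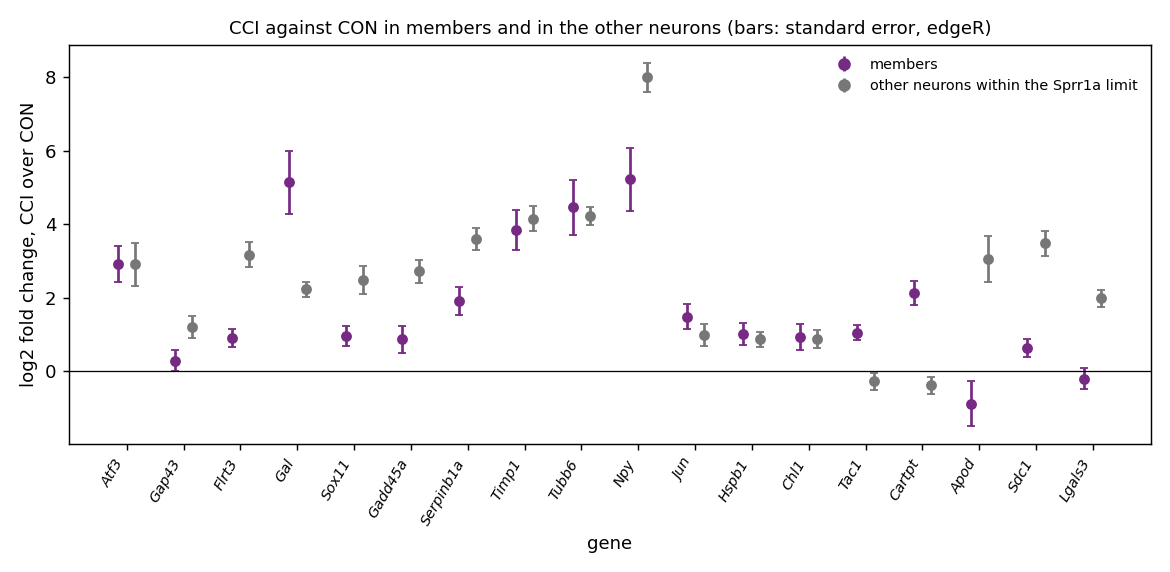
Log2 fold change of CCI over CON from edgeR, for injury genes and genes of the test of the difference, in members (purple) and in other neurons within the Sprr1a limit (grey). Bars are standard errors derived from the F statistic of the test. Flrt3, Sox11, Gadd45a, Sdc1 and Lgals3 lie lower in members than in other neurons, Tac1 and Cartpt lie higher, and Atf3 is close in both at 2.92 and 2.91.

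Whether CCI acted alike in members and other neurons was tested as the class by condition term of edgeR, blocked on library. It called 27 of 14344 genes, 0.188%. For 3 the effect was higher in members (0.0209%) and for 24 lower (0.167%), Mrgprd of the rule among the 24. With CCI library 1, CCI library 2, CON library 1 or CON library 2 left out, it called 24, 258, 249 and 154 genes. Neurons past the Sprr1a limit are in neither class. Other neurons included the 145 and 98 CCI neurons and 49 and 28 CON neurons with the 3 NP1 markers below the Mrgprd limit.

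Among genes higher in the difference, Cartpt had log2 fold changes of 2.13 (SE 0.33) in members and -0.38 (SE 0.22) in other neurons (edgeR adjusted p 0.00168). Tac1, which encodes substance P, had 373 and 424 CPM in CCI members, against 204 and 182 in CON members, without overlap. In other neurons Tac1 had 1833 and 2364 CPM in CCI, against 2471 and 2813 in CON, and in non-neuronal cells 202 and 154 CPM in CCI, against 242 and 45.5 in CON. The edgeR adjusted p of the Tac1 difference was 0.0177, and it was 0.107 without CCI library 1. Within members alone the Tac1 log2 fold change of 1.05 (SE 0.21) had an adjusted p of 0.137 with edgeR and 0.00166 with DESeq2. At 8000 UMIs per cell Tac1 was seen in 80.2% and 82.8% of CCI and 62.2% and 68.6% of CON members, and in 37.4% and 38.1% of CCI and 40.7% and 10.6% of CON non-neuronal cells.

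Among genes lower in the difference were genes with a large CCI effect in other neurons. Sdc1, a heparan sulphate proteoglycan, had log2 fold changes of 0.64 (SE 0.24) in members and 3.48 (SE 0.34) in other neurons (edgeR adjusted p 0.000245). Its levels were 80.4 and 49.7 CPM in CCI members, against 36.3 and 47.9 in CON members, and 93.2 and 50.7 in CCI other neurons, against 5.13 and 8.19 in CON other neurons. For Flrt3 the log2 fold changes were 0.91 (SE 0.24) and 3.17 (SE 0.34) in the same order (edgeR adjusted p 0.00168), and for Lgals3, which encodes galectin-3, -0.20 (SE 0.28) and 1.99 (SE 0.23) (edgeR adjusted p 0.00374). Gadd45a and Sox11 were also called, while the differences for Atf3 and Gal were 0.13 (SE 0.20) and 2.56 (SE 0.93, edgeR adjusted p 1 and 0.598).

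The genes that mark NP1 neurons were not called between CCI and CON members. Both groups had to pass the Mrgprd limit, which holds genes that go with Mrgprd alike. Neurons that lost such genes together with Mrgprd are not in this comparison, so it cannot show a loss of identity in them. None of 17 tested genes of non-peptidergic identity was called with edgeR or DESeq2, 1 had an unadjusted p under 0.05, and the median log2 fold change was 0.00. P2rx3 was that gene, with 43.4 and 32.3 CPM in CCI members, against 45.6 and 94.8 in CON members (log2 fold change -0.88, SE 0.31), where CON library 2 stood above the other 3 sums. Lpar3 had a log2 fold change of 0.33 (SE 0.19), and Agtr1a one of 0.01 (SE 0.23). None of 13 sodium channel, 50 potassium and HCN channel, 12 calcium channel or 17 sensory transduction channel genes tested was called with edgeR in members. Their medians were 0.10, 0.02, -0.02 and 0.09 on the log2 scale, and 1, 5, 0 and 1 of them had an unadjusted p under 0.05. The DESeq2 calls held none of these channels. Among 76 ribosomal protein genes the median was 0.02. At a recovery of 40% for simulated 2-fold changes, smaller changes may not have been detectable. The same holds for larger changes in genes that vary more between libraries than the simulated ones.

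Members of 1 library also differed among themselves. Of 1804 genes with a mean of at least 1 per 10000 in CON library 1, the 10 with the highest and the 10 with the lowest correlation with Lpar3 over its 249 members were chosen there and read in the other 3 libraries. Of the 60 correlations in the libraries not used for the choice, 60 had the same sign and 56 were over 0.2 in size. Cells of 1 library share their free RNA and their range of depth, so these values are descriptive and have no p.

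With Lpar3 went Klhl5, an adaptor of the kelch family, with r of 0.69 and 0.44 in CCI libraries 1 and 2 and 0.65 and 0.77 in CON libraries 1 and 2. Cd24a, a surface glycoprotein, and Prkcd, a protein kinase C, went the same way, with r between 0.46 and 0.71 for Cd24a.

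Against Lpar3 went Gm7271, with r of -0.62 and -0.71 in CCI libraries 1 and 2 and -0.77 and -0.64 in CON libraries 1 and 2. Lgals3 had r of -0.68 and -0.53 in CCI libraries 1 and 2 and -0.73 and -0.70 in CON libraries 1 and 2. Alcam, an adhesion molecule of axons, had r of -0.48 and -0.62 in CCI libraries 1 and 2 and -0.71 and -0.65 in CON libraries 1 and 2, and Fkbp1b, which binds calcium release channels, had r of -0.44 and -0.55 in CCI libraries 1 and 2 and -0.63 and -0.58 in CON libraries 1 and 2. Kcnmb1, a subunit of calcium-activated potassium channels, had the weakest single value of these, -0.06 in CCI library 1.

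Lpar3 itself reached from 0 in the lowest member of every library to between 6.49 and 9.57 per 10000 in the highest. Its median was 2.55 and 1.78 in CCI members and 1.88 and 2.60 in CON members. Its correlation with the logarithm of a member's UMIs was -0.22 and 0.20 in CCI libraries and -0.11 and -0.41 in CON libraries, and with Mrgprd 0.34 and 0.26 in CCI libraries and -0.09 and 0.07 in CON libraries. The correlation of Gm7271 with the logarithm of a member's UMIs was 0.18 and -0.08 in CCI libraries and 0.16 and 0.27 in CON libraries, opposite in sign to that of Lpar3 in each library, and the part of depth was not tested.

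**Figure D5:**
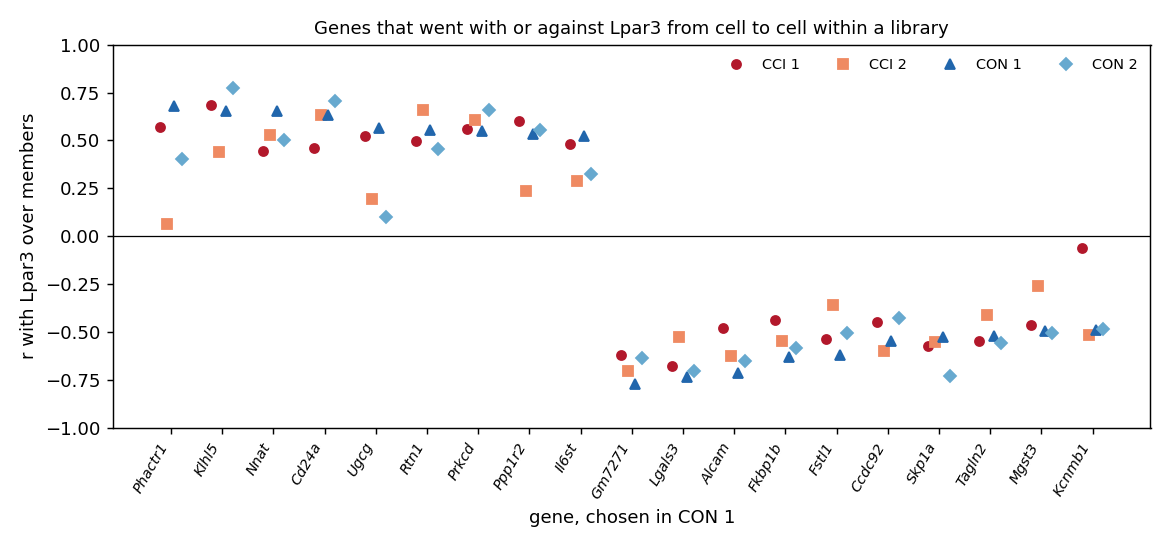
Correlation (r) with Lpar3 over the members of each library for genes among the 20 chosen in CON library 1, with CCI libraries in red and orange and CON libraries in blue. The genes on the left are above 0 and the genes on the right below 0 in all 4 libraries, with Phactr1 in CCI library 2 (0.06) and Kcnmb1 in CCI library 1 (-0.06) nearest to 0.

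Gm7271, which had the lowest r in CON library 1, had 53.3 and 51.2 CPM in CCI members, against 119 and 118 in CON members. The groups did not overlap (log2 fold change -1.18, SE 0.19), and the adjusted p was 0.0547 with edgeR and 0.0008 with DESeq2. With CCI library 2, CON library 1 and CON library 2 left out the log2 fold change was -1.22, -1.21 and -1.14. With the neurons chosen by the 3 markers the edgeR adjusted p was 0.601. At 8000 UMIs it was seen in 23.4% and 20.7% of CCI and 36.1% and 35.3% of CON members. The genes with the largest spread beyond counting noise in every library included Pdlim2, Ifi27l2a, Gm7271, Vim and Cdr1os.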

How the data were processed

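Cells of L4 and L5 DRGs were counted by 10x Genomics 3' v3.1 droplets, 2 libraries in each group. Per the methods, fastp cleaned the reads and Cell Ranger 5.0.1 aligned them (mm10). The deposited values are unnormalised UMI counts, whole numbers for 31253 genes, from before the authors downsampled, filtered and normalised them. The labels and the paper differ in the enzymes of digestion.

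UMIs were summed per library for members, other neurons within the Sprr1a limit and non-neuronal cells (no neuron by the rule, over 500 genes, mitochondrial UMIs under 20%, and fewer than 20 UMIs of Snap25, Uchl1 and Tubb3). Sums were tested in edgeR 4.0.16 (TMM, filterByExpr, quasi-likelihood test, Benjamini-Hochberg, adjusted p under 0.05) under R 4.3.3, with scipy 1.17.1 for exact intervals. Members were compared with other neurons, and the difference of the CCI effect was tested, with the library as a block. The SE of an edgeR value was derived as the absolute log2 value divided by the square root of the F statistic of its test. Printed levels are CPM (UMIs of a gene per 1000000 UMIs of the summed class) without TMM factors. A count of 0 leaves room for 3 UMIs. No doublet caller was run. Members with UMIs of another class (markers such as Mrgpra3, Nppb, Sst, Tac1, Th and Pvalb) were left out as an alternative instead.

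The members, the gene lists and the rules were chosen with earlier results of these data known. Named genes were the study's regeneration genes, up to 10 per direction past the threshold for CCI against CON and for the difference of effects (mean log2 CPM at least 5, for CCI against CON also no overlap), 15 per direction for members against other neurons (mean at least 6), and up to 6 of each list, with genes of the rule left out. The neurons chosen by Lpar3, Ctxn3 and Ly86, the correlations with Lpar3 and further genes of the lists, named for their role, were chosen after the data were seen.

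The alternatives took DESeq2 1.42.0, no filter for low counts, upper-quartile factors, 1 library fewer, the replicate number as a block, stricter limits on UMIs, mitochondrial share, Sprr1a, glial genes and Mrgprd, cells thinned to 8000 UMIs, and other neurons without Mrgprd. On simulated data with 1 common dispersion for all genes, members against other neurons gave back 79% of the 2-fold and all of the 4-fold changes. The difference of effects gave back 13% and 80%. In both simulations the other neurons took the expected shares and the dispersion of members (0.0316), where the fit of other neurons had 0.03825. Recovery in the data may therefore differ. Gene positions are from RefSeq annotation of GRCm38.p6, the same assembly as mm10. Some genes are not reported here.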

Additional observations from a re-analysis of the deposited data

Results flagged for a closer look

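Each gene here was singled out because its CCI effect differed between members and other neurons by the interaction test of edgeR (Benjamini-Hochberg). Values are log2 differences of the effect, members minus other neurons, and CCI against CON effects are given with members first.

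The neuropeptide gene Cartpt had a difference of 2.52 (SE 0.23) and Tac1 one of 1.33 (SE 0.18). Both were more abundant in other neurons than in members in all 4 libraries, and the Tac1 call was lost without CCI library 1.

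The injury-related genes Sdc1, Flrt3, Gadd45a and Sox11 had differences of -2.87 (SE 0.20), -2.27 (SE 0.20), -1.95 (SE 0.23) and -1.59 (SE 0.20). Each had a positive log2 fold change in members, 0.64, 0.91, 0.87 and 0.95, and a larger one in other neurons, 3.48, 3.17, 2.72 and 2.48. Without CCI library 1 the Sox11 call was lost (edgeR adjusted p 0.0574).

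Apod, an apolipoprotein of glia and fibroblasts, had a difference of -3.81 (SE 0.22). Its member sums were 16.1 and 30.8 CPM in CCI members, against 71.9 and 9.83 in CON members, so that CCI members lay within the CON range, and the sums were 3509 and 8618 in CCI non-neuronal cells, against 2258 and 618 in CON non-neuronal cells. The part of free RNA in this value was not tested.

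Galectin-3 (Lgals3) had a difference of -2.26 (SE 0.23), the laminin receptor subunit Itga7 -1.83 (SE 0.23), the caveolar protein gene Cavin3 -1.70 (SE 0.17), Phlda1 -1.65 (SE 0.25), and the complement inhibitor gene Serping1 -1.53 (SE 0.19). Serping1 had 237 and 210.4 CPM in CCI members, against 223 and 158 in CON members, and 53.2 and 64.1 in CCI other neurons, against 20.8 and 14.6 in CON other neurons. The Phlda1 call was lost without CCI library 1 (edgeR adjusted p 0.112), and that of Itga7 with cells thinned to 8000 UMIs (edgeR adjusted p 0.121).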

How the results depend on the processing

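The share of members, CCI minus CON, was -16.9 percentage points. It was 0.12 with the strictest Mrgprd limit, which left 11 and 1 members in CCI and 5 and 0 in CON, and between -20.4 and -13.5 with a library left out. Between -17.7 and -14.3 lay all other alternatives.

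The 7 genes called in members were 16 with DESeq2, 133 with no filter on low counts, 12 without any member with a Sprr1a UMI, 22 with Apoe and Fabp7 under 5 per 10000, 16 and 17 without members holding 3 UMIs or 1 per 10000 of another class, 81 and 118 with members by the 3 markers with and without the Sprr1a limit, 15 with members thinned, and between 46 and 148 with a library left out. The cause of these changes was not tested. With the replicate number as a block 5 genes were called, 3 of them among the 7, and Alkal2, Bc1, Cartpt and Timp1 had edgeR adjusted p-values of 0.0577, 0.0777, 0.105 and 0.0649. The labels do not say that a number marks a pairing, there are only 2 pairs, and the deviations of the libraries numbered 1 had a correlation of 0.13 over 11647 genes. Cartpt had an edgeR adjusted p of 0.0619, 0.0518 and 0.0581 with at least 12000 UMIs, with a mitochondrial share under 10% and with upper-quartile factors, 0.19 without members at 1 per 10000 of another class, and 1.00 (log2 fold change 1.53) with members thinned.

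With cells thinned 3778 genes were called between members and other neurons, 3575 of them among the 7106. The 27 genes of the difference were 291 with no filter, 75 with cells thinned, 130 with members by the 3 markers, and between 24 and 258 with a library left out. Without CON library 1 the split was 152 higher and 97 lower. With a library left out, Gadd45a lay between -0.053 and 1.38 and Gap43 between -0.33 and 0.67, both at the low end without CCI library 1. Gap43 also turned without any Sprr1a UMI (-0.14) and without members holding 3 UMIs of another class (-0.18). CCI against CON in members could not be fitted with the strictest Mrgprd limit. Timp1, Fbp1 and Cartpt held under 35 CPM in all member sums.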
